A study of Mus musculus with 47 samples.

Results

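The spindle checkpoint and chromosome segregation genes are a list of 46 mouse genes that act when a dividing cell lines up, holds and separates its chromosomes. Members were taken by gene symbol from the platform annotation of an Affymetrix expression array, and 42 of the 46 have at least 1 probe set that carries their symbol alone, with 85 such probe sets in all. Cdca8, Esco2, Espl1 and Spc24 have none and are not analysed here. All 42 passed the filter on low signals, within 8810 tested genes of 12393 on the array, and each gene was read from its probe set with the highest mean.

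The arrays measured total RNA of cells from 47 mouse T-cell lymphoblastic tumours, 1 array per tumour, in mice of 14 genetic backgrounds that predispose to T-cell lymphoma. Tumours labelled TLX1 positive were the 6 of the TLX1 transgenic background, which carries the homeobox oncogene TLX1 as a transgene. The 41 labelled TLX1 negative came from the other 13 backgrounds. Knockouts among them were p53 knockout (3 tumours), E2A knockout (2), rag E2A knockout (2) and Cdkn2a knockout retroviral insertional mutagenesis (9, called Cdkn2a knockout from here on). Transgenic backgrounds were LMO1 (3), Tal1 (2), ThPOK (3), Nup98HoxD13 (3), Pokemon (2) and beta-catenin (3), and the double transgenic ones were olig1-LMO1 (3) and Tal1-LMO2 (3). Ikaros Plastic (3) was the last. The labels state neither strain nor age, nor the promoters of the transgenes, nor whether each tumour came from its own mouse, and the p-values therefore cover only sample-to-sample spread, which may be partly technical. No normal T cells are among the samples, so each level is set against other tumours.

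In mitosis, cohesin rings hold the sister chromatids together, condensin compacts them, and the kinetochores built on the centromeres attach them to spindle microtubules. Unattached kinetochores load the checkpoint proteins Mad1, Mad2, Bub1, BubR1 and Mps1, which keep Cdc20 from activating the anaphase-promoting complex (APC/C). Once all are attached, the APC/C destroys securin, separase cuts cohesin, and the chromosomes part. Many of these genes are transcribed mainly in late cell cycle phases, so in bulk tumour RNA their level moves with the share of dividing cells, and fewer such cells and less RNA per cell cannot be told apart. TLX1-driven T-cell tumours are known for aneuploidy, which is the question the comparison with the other tumours bears on. Each member was therefore described both by its level, log2(signal + 15.9), and by its level relative to the module mean, which is the mean of the 42 members' log2 levels in the same tumour after each gene was centred on its mean over all tumours.

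The stretches before the start sites of the 4 genes that the aneuploidy question names (Mad2l1, Bub1, Chfr and Stag1), and of Plk1 and Kif23, which moved in opposite directions in the TLX1 tumours, are printed because they show which of the members hold the promoter letters common to mitotic genes. They are the 250 bases before the annotated start, 5′ to 3′ on the gene's strand, from RefSeq on GRCm38.p6, and capitals mark the letters CCAAT on either strand (ATTGG on the printed strand is CCAAT on the other). The windows are chr6:66534971-66535220 (plus strand) for Mad2l1, chr2:127831860-127832109 (minus) for Bub1, chr5:110135580-110135829 (plus) for Chfr, chr7:122159185-122159434 (plus) for Plk1, chr9:100643198-100643447 (plus) for Stag1 and chr9:61946800-61947049 (minus) for Kif23.
Mad2l1: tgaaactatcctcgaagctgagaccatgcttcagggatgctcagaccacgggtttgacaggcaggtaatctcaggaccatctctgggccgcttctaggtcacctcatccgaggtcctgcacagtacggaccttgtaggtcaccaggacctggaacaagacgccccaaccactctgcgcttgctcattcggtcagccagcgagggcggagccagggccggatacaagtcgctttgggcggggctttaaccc
Bub1: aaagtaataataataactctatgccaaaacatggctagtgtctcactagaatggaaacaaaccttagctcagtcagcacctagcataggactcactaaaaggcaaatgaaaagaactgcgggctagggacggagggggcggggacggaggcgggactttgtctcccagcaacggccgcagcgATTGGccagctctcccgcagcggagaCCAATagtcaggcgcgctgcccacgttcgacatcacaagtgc
Chfr: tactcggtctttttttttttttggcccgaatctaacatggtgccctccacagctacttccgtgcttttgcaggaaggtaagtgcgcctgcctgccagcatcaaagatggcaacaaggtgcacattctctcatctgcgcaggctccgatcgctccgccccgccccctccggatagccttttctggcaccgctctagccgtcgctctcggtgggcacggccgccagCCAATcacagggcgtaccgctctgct
Plk1: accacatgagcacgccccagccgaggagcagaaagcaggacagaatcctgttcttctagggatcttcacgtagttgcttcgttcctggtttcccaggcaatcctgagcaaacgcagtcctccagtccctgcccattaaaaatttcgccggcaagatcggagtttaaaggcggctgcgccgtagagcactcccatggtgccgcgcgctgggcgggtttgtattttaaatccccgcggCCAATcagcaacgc
Stag1: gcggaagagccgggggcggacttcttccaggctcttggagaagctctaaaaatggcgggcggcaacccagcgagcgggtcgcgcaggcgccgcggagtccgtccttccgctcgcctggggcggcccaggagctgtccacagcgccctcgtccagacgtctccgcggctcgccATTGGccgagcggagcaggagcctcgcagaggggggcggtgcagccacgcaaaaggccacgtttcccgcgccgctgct
Kif23: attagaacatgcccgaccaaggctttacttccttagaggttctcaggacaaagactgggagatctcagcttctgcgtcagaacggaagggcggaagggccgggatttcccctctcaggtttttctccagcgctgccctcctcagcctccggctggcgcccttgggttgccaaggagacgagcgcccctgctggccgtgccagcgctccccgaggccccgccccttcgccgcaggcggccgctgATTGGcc

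Bub1 holds 2 CCAAT matches, 66 and 40 bases before its start, and Plk1 holds 1 at 12 bases. Stag1 has 1 at 76 bases, Chfr 1 at 24 bases and Kif23 1 at 5 bases, while the Mad2l1 window has none. CCAAT is the box bound by NF-Y, and TTTGAA is the cell cycle genes homology region (CHR) found beside it in many mitotic promoters. RefSeq promoters were at hand for 38 of the 46 members (42 promoters), and not for Aurkb, Esco2, Incenp, Rad21, Spc24, Stag2, Tpx2 and Zwilch. CCAAT on either strand lay in 26 of the 42 (61.9%), against 33.8% of all 32851 promoters of the same length and 35.4% of the 21262 promoters of protein-coding genes. TTTGAA lay in 9 of the 42 (21.4%), against 16.0% of all promoters and 14.5% of the protein-coding ones, and in none of the 6 printed windows. The Bub3 promoters overlap each other, and the same TTTGAA and CCAAT sites are counted in each of them. No CCAAT and TTTGAA match overlapped. A match describes the letters only.

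Some tumours stood apart before any member was compared. All arrays had been scaled to the same trimmed mean (250.063 to 250.129). The summed signal of the T cell markers was 1681 in p53 knockout tumour 2 and 7832 or more in every other tumour, while its endothelial marker sum was 12355 against at most 724 elsewhere. That tumour's markers therefore go against its label of T-cell lymphoblasts, and its results are given with and without it. Lmo1 signals were 11.1 to 34.3 in tumours labelled olig1-LMO1 double transgenic and 586 to 2526 in tumours labelled Nup98HoxD13 transgenic, against 522 to 2344 in the LMO1 transgenic tumours, so the Lmo1 signals do not match these labels, which are kept here only as names. Zbtb7b, the gene of ThPOK, had signals of 35.6 to 50.6 in the ThPOK transgenic tumours and up to 357 elsewhere, and Lmo2 had 13.6 to 19.8 in the Tal1-LMO2 tumours and up to 978 elsewhere. Neither signal set its labelled group apart as high, and a probe set need not detect a transgene, so these signals do not check those labels. Tlx1 itself is not analysed here. The mean log2 3'/5' signal ratio of the Gapdh and Actb control probe sets, which rises as RNA or cRNA is shortened, was 0.519, 2.79, 0.899, 0.368, 2.55 and 1.94 in TLX1 tumours 1 to 6. It lay between -0.17 and 0.965 in the 41 negative tumours, so TLX1 tumours 2, 5 and 6 exceeded all of those.

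The module mean followed a mean over other proliferation genes. It averaged -0.15 ± 0.31 in the 6 TLX1 positive tumours and 0.02 ± 0.31 in the 41 negative ones (SD, log2, around a mean of 0 over all tumours). In TLX1 tumours 1 to 6 it was 0.21, -0.33, -0.26, -0.04, -0.60 and 0.14, which lies inside the range of -1.07 to 0.56 in the negative tumours. The lowest tumours were p53 knockout 2 (-1.07), Ikaros Plastic 2 (-0.85) and TLX1 transgenic 5 (-0.60), and the highest was Nup98HoxD13 1 (0.56). A mean over 32 other proliferation genes, for DNA replication and the cell cycle, was -0.17 ± 0.31 in TLX1 positive and 0.02 ± 0.40 in TLX1 negative tumours. Across the 47 tumours the module mean and this proliferation mean correlated with r = 0.861, with r = 0.930 after background means were removed, and with 0.889 when p53 knockout 2 was also left out (n = 46). In some backgrounds the means parted. The module and proliferation means averaged -0.15 and 0.22 in E2A knockout and 0.07 and 0.41 in Tal1-LMO2 tumours. In p53 knockout tumours they averaged -0.24 and -0.52. Both means come from the same arrays, so depth, scaling and RNA quality are shared, and proliferation itself was not measured.

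**Figure D1:**
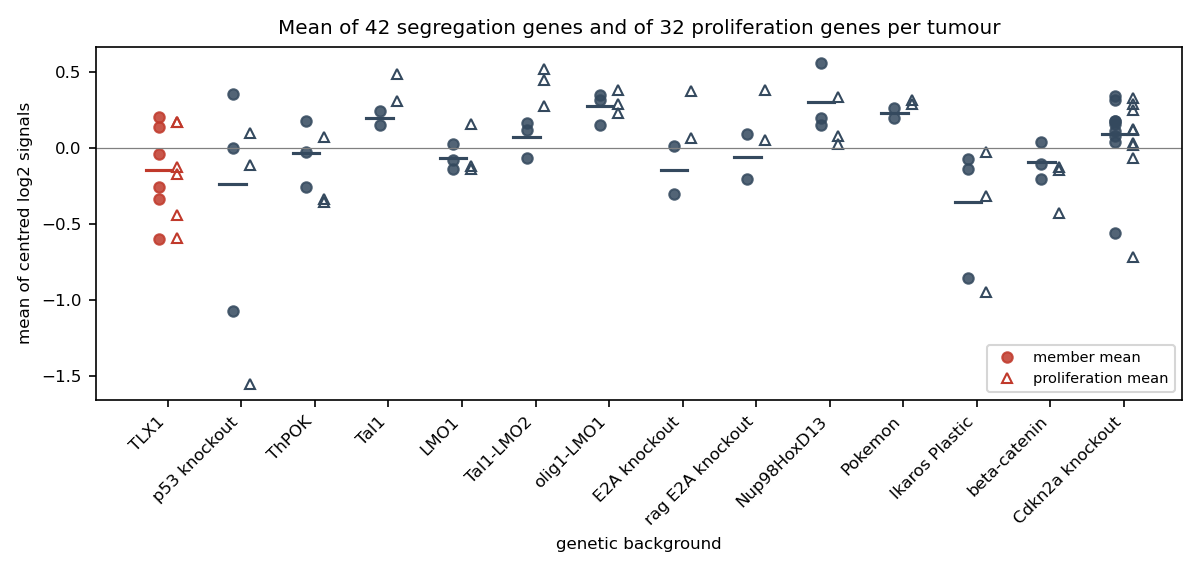
Mean log2 level of the 42 members (dots) and of 32 proliferation genes (triangles) in each of the 47 tumours, both centred on 0 over all tumours, by background; lines mark the mean of the members in each background. The 6 TLX1 transgenic tumours lie between -0.60 and 0.21, inside the range of the others, and p53 knockout tumour 2 is lowest at -1.07.

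The members did not move as 1 block. Within backgrounds, pairs of the 26 members with mitotic expression had a median correlation of 0.71 (325 pairs). Pairs of a mitotic and another member reached 0.44 (416 pairs), and pairs of the other members 0.22 (120 pairs). The members closest to the mean of the others were Kif2c (r = 0.910), a microtubule depolymerase at centromeres, Bub1 (0.909), a checkpoint kinase, Ncapg (0.908), a condensin subunit, Aurka (0.902), a spindle pole kinase, and Plk1 (0.897), a kinase of mitotic entry and exit. At the other end were Nek6 (-0.39), a kinase of spindle assembly, Zwint (-0.21), a kinetochore linker protein, Pttg1 (0.122), which is securin, Cdc27 (0.257), an APC/C subunit, and Mad1l1 (0.278), which holds Mad2 at kinetochores. Each value describes 47 tumours that share their arrays with the mean.

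The spread of the log2 level over the 47 tumours was widest for Cenpe (SD 0.679), a kinetochore motor, Nek6 (0.615) and Stag1 (0.607), and narrowest for Smc1a (0.320), a cohesin ring subunit, Anapc1 (0.333), an APC/C scaffold, and Stag2 (0.336), the paralogue of Stag1. For 23 of the 42 members the lowest tumour was p53 knockout 2, for 6 it was Ikaros Plastic 2, and for 3 Cdkn2a knockout 8. Nek6 exceeded its array's median signal in 11 arrays and Cdc27 in 20, so their folds depend most on the constant added before the log.

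In TLX1 positive against TLX1 negative tumours, 1 of the 42 members was higher and 5 were lower. The higher one was Kif23, a kinesin of the central spindle and cytokinesis, and the lower ones were Stag1, Plk1, Cdc27, Zwilch and Mad2l1 (limma, Benjamini-Hochberg adjusted p under 0.05 over all 8810 genes). These are 2.38% and 11.9% of the members, where 12.6% of all tested genes were called higher and 8.86% lower (in either direction 14.3% of members and 21.4% of all genes). Signs were negative for 33 of 42 members (78.6%) and for 43.8% of all tested genes, and the median difference was -0.11, against 0.07 over all genes. Relative to the module mean, 3 members were higher (Kif23, Ncapg and Ncaph) and 4 lower (Stag1, Plk1, Zwilch and Mad2l1), which are 7.14% and 9.52%, where 14.2% and 3.3% of all genes were called (in either direction 16.7% of members and 17.5% of all genes). The module mean differs by -0.17 between the groups, so the relative scale adds that amount to every gene. For 0 of the 42 members did the signals of the groups fail to overlap, as they did for 0.0568% of all genes in either direction. Without p53 knockout 2 the counts were 1 higher and 6 lower in level and 4 higher and 5 lower relative to the module mean, and without Ikaros Plastic 2 as well 8 were lower in level.

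The calls did not hold in every setting. When the 3'/5' ratio was added as a covariate, 0 members were called in either direction on both scales (2 higher and 1 lower at an unadjusted p under 0.05), and 6 of the 8810 genes were called on the level scale. When TLX1 tumours 2, 5 and 6 were left out, 0 members were called (level: 1 higher and 2 lower unadjusted), and likewise with background as a random block (0 higher and 1 lower unadjusted). Over all genes these settings called 1.5% (3 tumours left out) and 0.0227% (random block) in level. With those 3 tumours alone against the negative ones, 0 members were higher and 7 were lower, where 15.8% of all genes were called. In TLX1 tumours 1, 3 and 4 the level differences were -0.97 for Stag1, -0.52 for Zwilch and 0.62 for Kif23. Under the random block the median member difference was -0.12, against -0.11 without it, while the median SE was 0.35 against 0.21. RNA quality was not separated from the TLX1 genotype by the design, and its part in these differences cannot be told apart from that of the genotype.

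Markers of other cells also differed. Of the tested markers 4 of 9 for myeloid cells, 2 of 6 for B cells, 2 of 5 for thymic epithelium and 1 of 5 for endothelium were higher in TLX1 positive tumours, and 0 of 9 for T cells, 0 of 6 for stroma and 0 of 2 for erythroid cells, where 12.6% of all genes were called higher. The 4 myeloid markers called were the neutrophil genes S100a9, Camp, Ngp and Mpo, each highest in TLX1 tumour 2, while Lyz2 stood at 0.03, Adgre1 at -0.03 and Itgam at -0.59. Summed myeloid signals ran from 2779 to 59632 in TLX1 positive tumours, with the highest in tumour 2 and a median of 3817, and from 931 to 9522 in negative ones, with a median of 3899. B cell sums ran from 2519 to 18450 in TLX1 positive and from 128 to 8750 in negative tumours, and thymic epithelial sums from 389 to 3270 in TLX1 positive and from 95.5 to 6279 in negative ones. Endothelial sums were 277 to 724 in TLX1 positive and 115 to 12355 in negative tumours, and T cell sums 15141 to 20737 in TLX1 positive and 1681 to 35256 in negative ones. Stromal sums were 1458 to 8825 in TLX1 positive and 170 to 17523 in negative tumours, and erythroid sums 92.8 to 349 in TLX1 positive and 54.9 to 869 in negative ones. No signal in the deposited table is 0. The part of these cells in the members' differences was not tested.

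Among the 10 checkpoint genes, 0 were higher and 2 lower in TLX1 positive tumours on either scale, with a median level difference of -0.15. Of all tested genes, 12.6% were called higher and 8.86% lower in level, and 14.2% and 3.3% relative to the module mean. Mad2l1 encodes Mad2, the protein that captures Cdc20 at unattached kinetochores. Its signals in TLX1 positive tumours were 537 at the lowest, 846 at the median and 1420 at the highest, against 222, 1356 and 2297 in negative tumours. Only tumour 1 exceeded the negative median, and 21 of the 41 negative tumours lay below the TLX1 maximum. The difference was -0.66 ± 0.24 (SE, log2, limma adjusted p = 0.0428) in level and -0.49 ± 0.17 (adjusted p = 0.0333) relative to the module mean. It was -0.33 in level without TLX1 tumours 2, 5 and 6, and 0.13 with the ratio covariate, and leaving out any 1 of TLX1 tumours 2 to 6 ended both calls, with level differences from -0.70 to -0.54.

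Zwilch is a subunit of the complex that brings dynein and Mad1 to kinetochores. Its signals were 172, 178 and 255 (lowest, median, highest) in TLX1 positive and 104, 322 and 623 in negative tumours. All 6 TLX1 tumours lay under the negative median, and 8 negative tumours lay below the TLX1 maximum. The level difference was -0.67 ± 0.21 (limma adjusted p = 0.0158) and the relative one -0.50 ± 0.14 (adjusted p = 0.0128). It was -0.52 in level without TLX1 tumours 2, 5 and 6 and -0.22 with the ratio covariate, neither of them called, and without TLX1 tumour 6 the relative value was -0.41 and no longer passed.

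Bub1, the kinase that recruits other checkpoint proteins to kinetochores, had signals of 300, 502 and 842 in TLX1 positive and 180, 720 and 1165 in negative tumours. The difference of -0.33 ± 0.24 did not pass the test (limma adjusted p = 0.341), nor did the relative one of -0.16 ± 0.15 (adjusted p = 0.458). TLX1 tumours 1 to 6 stood at -0.16, 0.13, -0.16, -0.53, -0.42 and 0.28 relative to the module mean, on both sides of the negative median of 0.08. A dimmer Bub1 probe set, above the array median in 9 arrays, gave 0.31 in level and 0.48 relative to the module mean, and neither passed. Chfr, a ubiquitin ligase that delays entry into mitosis under microtubule stress, had signals of 451, 562 and 655 in TLX1 positive and 305, 663 and 1076 in negative tumours. All 6 TLX1 tumours were under the negative median, yet 20 negative tumours lay below the TLX1 maximum. The level difference was -0.17 ± 0.16 (limma adjusted p = 0.492), and relative to the module mean it was 0.00 ± 0.17 (adjusted p = 0.992).

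The other 6 checkpoint members had level differences from -0.28 to 0.35, and none passed the test. Bub3, which binds Bub1 and BubR1, stood at 0.00 (SE 0.16), and Bub1b, which encodes BubR1, at -0.14 ± 0.27. Ttk, the Mps1 kinase that starts the signal, was at -0.12 ± 0.19. Zw10, the partner of Zwilch, was at -0.28 ± 0.16, and Mad2l2, a Mad2 relative that also acts in DNA repair, at -0.09 ± 0.19. Mad1l1 was at 0.35 ± 0.20 in level and 0.52 ± 0.21 relative to the module mean (limma adjusted p = 0.0753). On the relative scale Mad1l1 and Mad2l1, whose proteins bind each other, had opposite signs, and only the second passed.

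**Figure D2:**
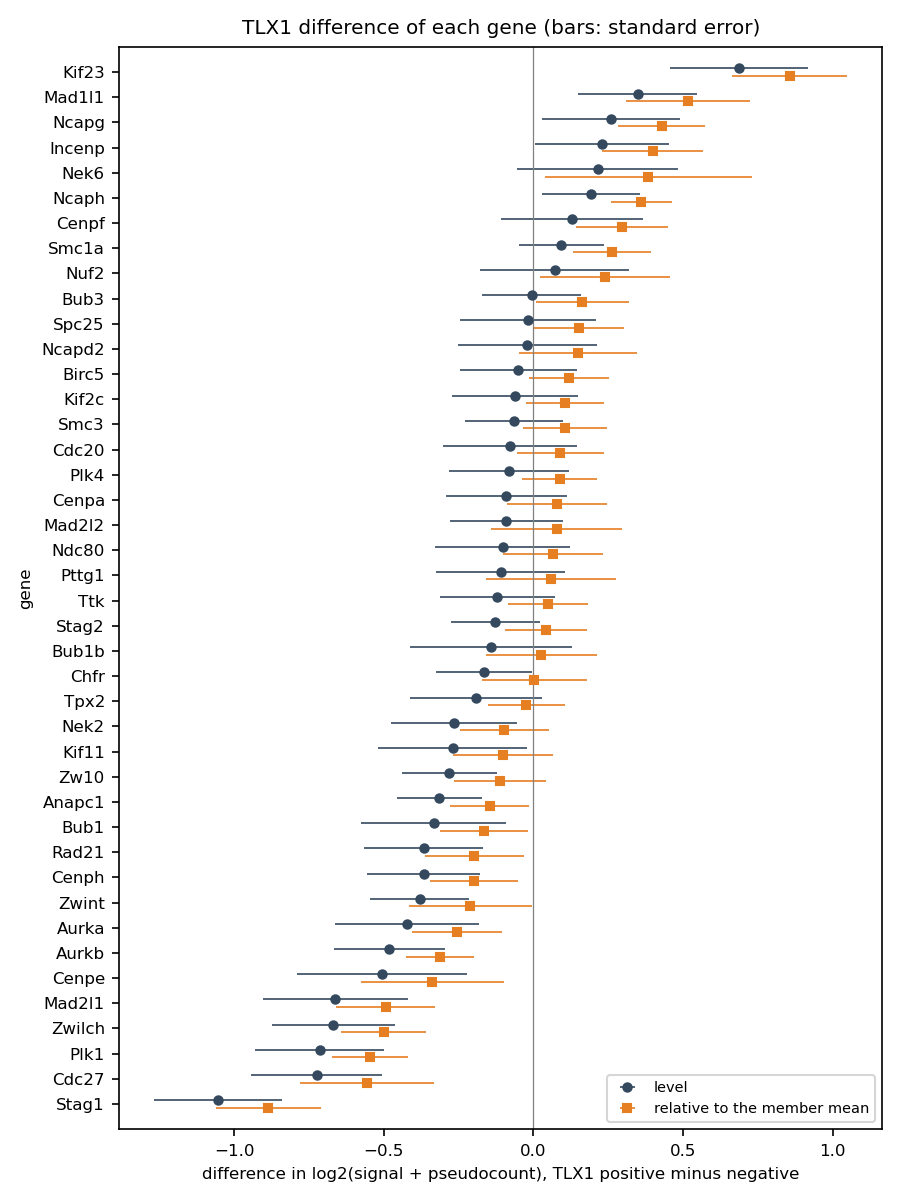
Log2 difference of the 6 TLX1 positive minus the 41 TLX1 negative tumours for the 42 members, in level and relative to the module mean, with SE bars. Stag1 lies lowest at -1.05 in level and Kif23 highest at 0.69, and Bub1 and Chfr lie within about 1 SE of 0 on the relative scale.

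Stag1 showed the largest difference of any member. It encodes SA1, 1 of the alternative cohesin subunits that hold the ring on chromatin. Its signals were 207, 303 and 430 (lowest, median, highest) in TLX1 positive and 178, 675 and 1101 in negative tumours. Every TLX1 tumour lay under the negative median and 5 of 41 negative tumours lay below the TLX1 maximum. Its level was 2.08-fold lower, a difference of -1.05 ± 0.21 (limma adjusted p = 0.00042), and relative to the module mean it was -0.89 ± 0.18 (adjusted p = 0.000707). In TLX1 tumours 1 to 6 the relative levels were -0.87, -0.86, -0.92, -0.61, -0.82 and -0.56, and only ThPOK tumours 2 (-0.81) and 3 (-0.59) and p53 knockout 1 (-0.77) reached into that range. In tumours 1, 3 and 4 the difference from the negative tumours was -0.97 in level, and with those 3 tumours the test did not pass (adjusted p = 0.07). Their 3'/5' ratios also lay above the negative median, so this split does not remove the difference in RNA quality. With the ratio as a covariate it was -0.36. Over 14 alternatives the level difference ranged from -1.30 to -0.36 and its adjusted p from 1.47e-05 to 0.836. The call held when any single tumour was left out, with values from -1.15 to -0.96.

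On the probe sets used, the other cohesin members did not pass the test on either scale. Smc1a was at 0.09 ± 0.14, Smc3, its partner in the ring, at -0.06 ± 0.16, Rad21, the subunit that separase cuts, at -0.37 ± 0.20, and Stag2 at -0.13 ± 0.15. The 3 other Stag1 probe sets gave -0.76, -1.30 and -1.23, so all 4 probe sets were negative. Other probe sets were called lower on both scales for Stag2 (-1.10 in level), Smc1a (-1.03) and Rad21 (-2.32). A further one of Rad21 (-0.79) was called in level only. Further ones of Smc1a (-0.36) and Smc3 (-0.04) did not pass, so low values were not particular to Stag1.

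Of the 5 mitotic kinases, Plk1 alone was called on the probe sets used, and it was lower. Its signals were 136, 389 and 629 in TLX1 positive and 178, 607 and 891 in negative tumours (lowest, median, highest). Tumour 5 was the lowest of all 47 arrays, while tumours 1 and 4 lay at the module mean on the relative scale (0.00 and 0.05). The level difference was -0.71 ± 0.22 (limma adjusted p = 0.0139) and the relative one -0.54 ± 0.13 (adjusted p = 0.00288). In level it was -0.28 without TLX1 tumours 2, 5 and 6, -1.14 without 1, 3 and 4, and 0.11 with the ratio covariate. Leaving out only tumour 5 gave -0.46 and only tumour 2 gave -0.62, and neither value was called. Aurka stood at -0.42 ± 0.24, Nek2, a centrosome kinase, at -0.27 ± 0.21, Plk4, which drives centriole duplication, at -0.08 ± 0.20, and Nek6 at 0.22 ± 0.27. The other Plk4 probe sets gave -0.52, which was called on both scales, and -0.32, which was called on neither.

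In the APC/C group, Cdc27 was called lower in level only. Its signals were 19.2, 34.0 and 52.6 in TLX1 positive and 20.0, 68.3 and 122 in negative tumours. All 6 TLX1 tumours lay under the negative median. The level difference of -0.72 ± 0.22 passed (limma adjusted p = 0.0141) and the relative difference of -0.56 ± 0.22 did not (adjusted p = 0.0760), and without TLX1 tumour 6 the level call was lost as well, at -0.62. Cdc20, the APC/C activator that the checkpoint restrains, was at -0.08 ± 0.22, Anapc1 at -0.31 ± 0.14 and Pttg1 at -0.11 ± 0.22.

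Kif23 moved the other way. Its signals were 419, 564 and 880 in TLX1 positive and 138, 359 and 917 in negative tumours. All 6 TLX1 tumours were above the negative median and 14 negative tumours were above the TLX1 minimum. It was 1.61-fold higher, a difference of 0.69 ± 0.23 (limma adjusted p = 0.0264), and 0.86 ± 0.19 relative to the module mean (adjusted p = 0.0022). Relative levels in TLX1 tumours 1 to 6 were 0.67, 0.60, 0.41, 0.61, 1.15 and 1.05, and 6 negative tumours lay above the lowest of them. In level, the difference was 0.62 without TLX1 tumours 2, 5 and 6 and 0.87 with the ratio covariate, neither of which was called, and without TLX1 tumour 1, 5 or 6 the call was lost too. Its 2 other probe sets, above the array median in 1 and 16 arrays, gave 0.27 and -0.59, so the direction depends on the probe set. The other motor and spindle assembly members, Kif11, which pushes spindle poles apart (-0.27 ± 0.25), Kif2c (-0.06 ± 0.21) and Tpx2, the activator of Aurka (-0.19 ± 0.22), did not pass on the probe sets used.

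The condensin subunits Ncapg and Ncaph were called only relative to the module mean. Ncapg signals were 367, 426 and 685 in TLX1 positive and 110, 435 and 654 in negative tumours, and its relative difference was 0.43 ± 0.15 (limma adjusted p = 0.0347). Ncaph signals were 584, 930 and 1547 in TLX1 positive and 358, 880 and 1241 in negative tumours, with 0.36 ± 0.10 (adjusted p = 0.0114). In level their differences were 0.26 ± 0.23 and 0.19 ± 0.16 and did not pass. Ncapd2, the third condensin member, stood at -0.02 ± 0.23 in level. The groups overlapped widely for both called genes, and every TLX1 tumour was above the negative median in relative level for Ncapg, and 5 of 6 for Ncaph. Ncapg did not pass without TLX1 tumour 2, 5 or 6 (0.38 to 0.42), nor Ncaph without tumour 2, 4 or 6 (0.29 to 0.32). The other Ncapg probe set gave -0.48 in level and -0.32 relative to the same module mean. The other Ncaph probe set, above the array median in 47 arrays, gave 0.004 and 0.17, and neither passed. Without TLX1 tumour 2 or without tumour 6, 1 member instead of 3 was called relatively higher, and without tumour 6, 2 instead of 4 were called relatively lower.

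In the chromosomal passenger complex, which corrects wrong attachments, no member passed on the probe sets used. Aurkb, its kinase, was nearest to the threshold at -0.48 ± 0.19 (limma adjusted p = 0.0563), Incenp, its scaffold, was at 0.23 ± 0.23 and Birc5, or survivin, at -0.05 ± 0.19. Another Incenp probe set was called lower on both scales (-1.71 in level), and a further one was called higher relative to the module mean only (0.43). On the probe sets used, none of the 8 centromere and kinetochore members passed, and their median level difference was -0.10. They ran from Cenpe at -0.51 ± 0.28, over Zwint at -0.38 ± 0.17, Cenph at -0.37 ± 0.19, Ndc80 at -0.10 ± 0.23, Cenpa, the histone that marks centromeres, at -0.09 ± 0.20, Spc25 at -0.02 ± 0.23 and Nuf2 at 0.07 ± 0.25, to Cenpf at 0.13 ± 0.24. Ndc80, Nuf2 and Spc25 are subunits of the complex that grips the microtubule.

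**Figure D3:**
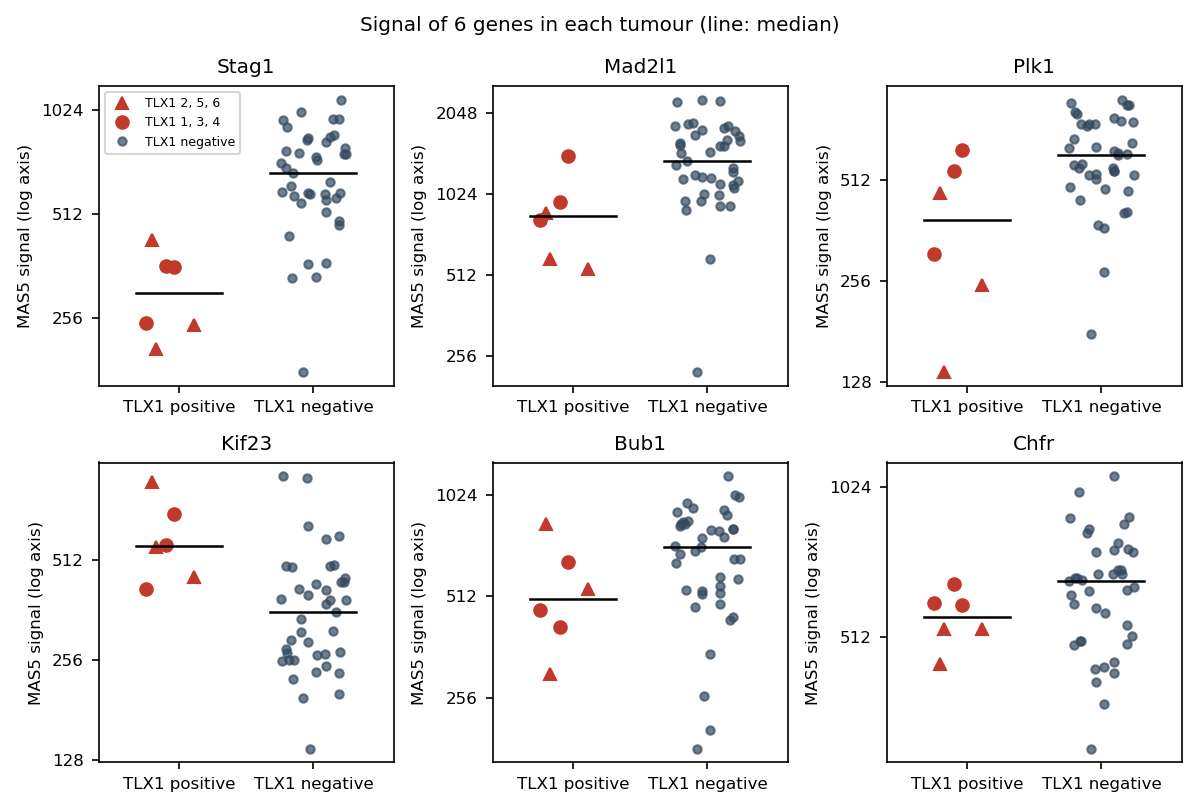
MAS5 signal (arbitrary units, log axis) of Stag1, Mad2l1, Plk1, Kif23, Bub1 and Chfr in each TLX1 positive tumour and each TLX1 negative tumour; triangles are TLX1 tumours 2, 5 and 6, whose control 3'/5' ratios exceed all negative tumours, circles TLX1 tumours 1, 3 and 4, and lines are medians. The Stag1 medians are 303 in TLX1 positive and 675 in negative tumours, and the Chfr medians are 562 and 663.

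Which probe set stood for a gene mattered in the TLX1 tumours. In a fit over all 22626 probe sets, 1 of the 85 member probe sets was called higher (1.18%) and 20 lower (23.5%, in 15 genes), where 13.9% and 11.1% of all probe sets were called. Of the 85, 63 (74.1%) had lower means in TLX1 tumours 2, 5 and 6 than in TLX1 tumours 1, 3 and 4, as had 54.3% of all 22626 probe sets. Among 40 other probe sets in 24 genes, 27 gave a lower value than the one used, by a median of -0.38 over all 6 tumours, -0.40 in tumours 2, 5 and 6 and -0.24 in tumours 1, 3 and 4. For Rad21 the 3 probe sets gave -0.37 (used), -0.79 and -2.32, and for Kif11 -0.27 (used), -0.67 and -1.58. For Incenp they gave 0.23 (used), 0.26 and -1.71, of which the last was called lower. For Chfr they gave -0.17 (used) and 0.03, and for Bub1 -0.33 (used) and 0.31. Some genes not called on the probe set used had others called lower. These gave -1.19 for Pttg1, -0.97 for Anapc1, -0.81 and -1.42 for Kif2c and -1.27 for Zwint. A further Zwint probe set gave 0.43 in level, which did not pass, and 0.60 relative to the module mean, which passed. Further probe sets of Incenp (0.43) and Tpx2 (0.50) also passed as higher relative to the module mean, but not in level. With the probe set of the largest interquartile range standing for each gene, 1 member was higher and 14 lower in level (30.0% of all genes called), and 12 were higher and 9 lower relative to the module mean (43.7%).

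**Figure D4:**
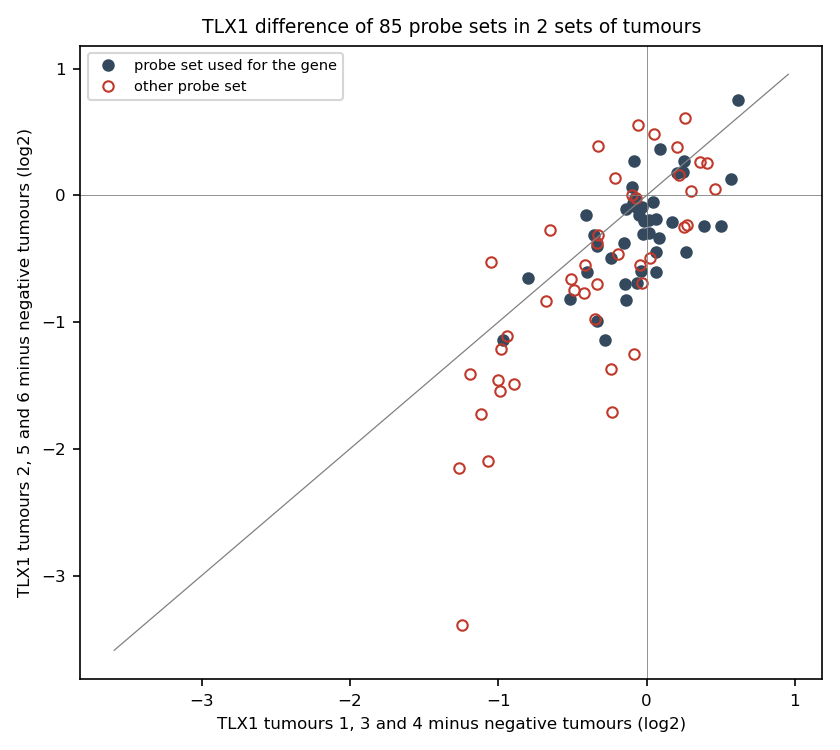
Each of the 85 probe sets of the 42 members by its log2 difference from the negative tumours in TLX1 tumours 1, 3 and 4 (x axis) and in TLX1 tumours 2, 5 and 6 (y axis), with the line of equal values. Filled points are the probe sets used and open points the others, and 63 of the 85 lie below the line.

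Other genes of the same processes were counted in the same fit, which called 12.6% of all genes higher and 8.86% lower. Of 87 further segregation genes, 62 were tested, of which 2 (3.23%) were higher and 10 (16.1%) lower in TLX1 positive tumours, with a median of -0.17. The 4 of lowest p were Rae1, a mitotic spindle and nuclear pore factor (-0.95, limma adjusted p = 0.000188), Ckap5, a microtubule polymerase (-1.08, adjusted p = 0.000266), Mastl, the kinase that restrains the phosphatase PP2A in mitosis (-1.06, adjusted p = 0.00042), and Ect2, the exchange factor that starts cytokinesis with Kif23 (-1.06, adjusted p = 0.00106). Of the 32 proliferation genes, 1 (3.12%) was higher, Lig1 (0.48, adjusted p = 0.0365), a DNA ligase of replication. The 2 (6.25%) lower were Mcm2 (-0.59, adjusted p = 0.0134), a subunit of the replicative helicase, and Foxm1 (-0.68, adjusted p = 0.0168), a transcription factor of mitotic genes. Their median was -0.23. These fits carry the same limits of RNA quality as those of the members.

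Across the 14 backgrounds, 23 of the 42 members differed in level (limma F-test, 54.8%, where 68.1% of all genes did), and 25 differed relative to the module mean (59.5%, against 59.6%). Both F-tests called 19 members. By role, the F-test called in level 8 of 10 checkpoint genes, 4 of 5 cohesin members, 4 of 8 centromere and kinetochore members, 2 of 4 APC/C members, 2 of 5 kinases, and 1 each of the 3 passenger complex, 3 condensin and 4 spindle members. Relative to the module mean it called 10 checkpoint genes, 2 cohesin members, 2 centromere and kinetochore members, 3 APC/C members, 3 kinases, 1 passenger complex member, 2 condensin and 2 spindle members. Differences between the roles were not tested. Each background was then set against the unweighted mean of the other 13. Of 588 pairs of a member and a background, 16 were called higher and 36 lower in level (8.84%, where 11.5% of all pairs were called), and 26 higher and 20 lower relative to the module mean (7.82%, against 8.06%). The fit pools the spread over all backgrounds, which takes those of 2 or 3 tumours to vary like the rest, and the comparisons share tumours.

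**Figure D5:**
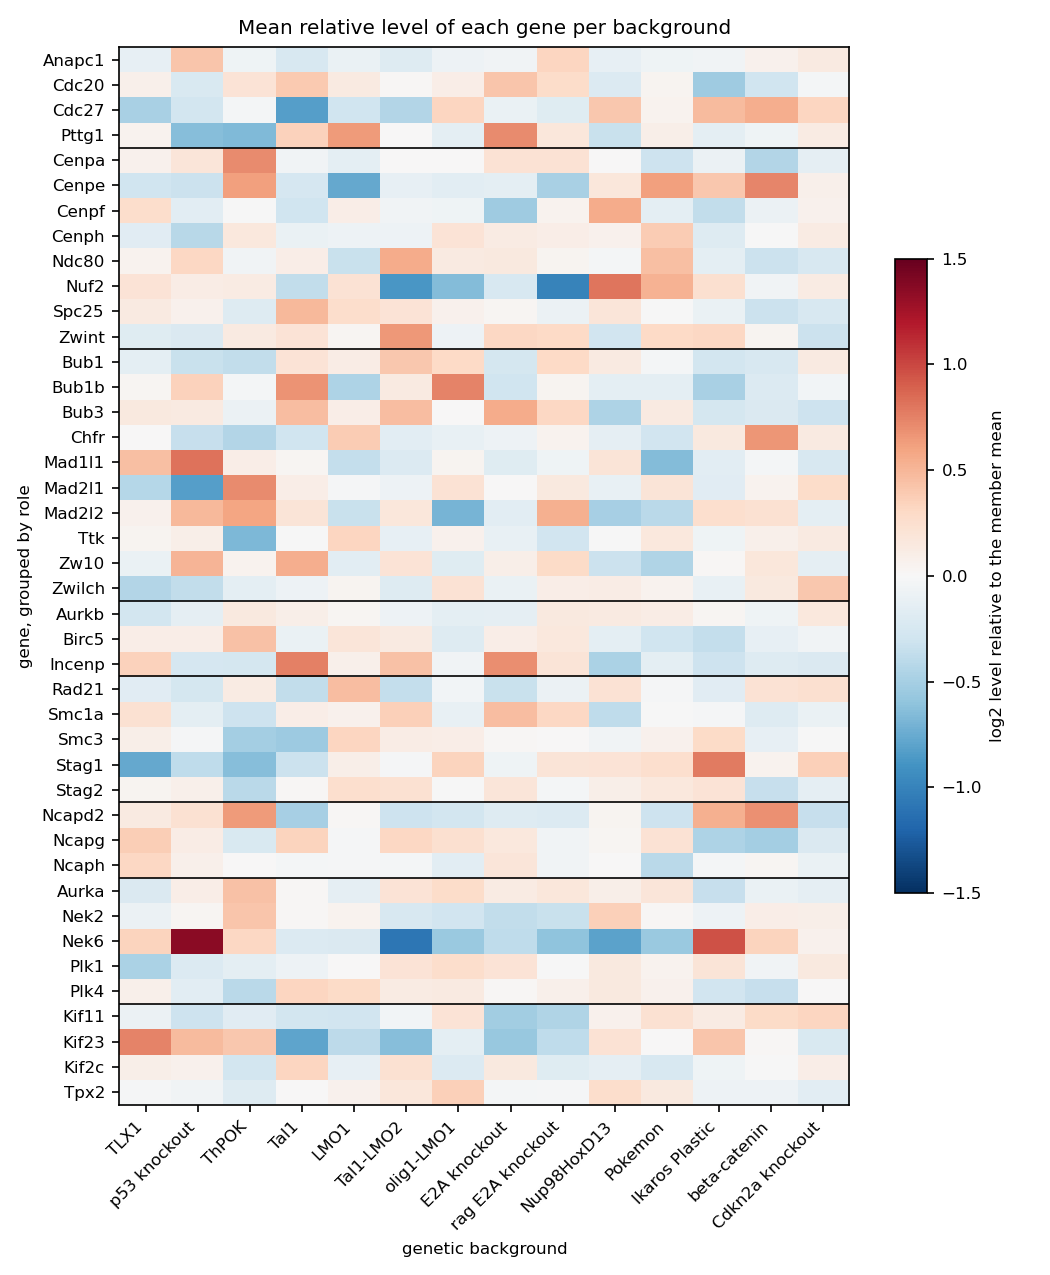
Mean log2 level relative to the module mean for the 42 members (ordered by role) in the 14 backgrounds, on a colour scale from -1.5 to 1.5. Stag1 is low in the TLX1 transgenic and ThPOK transgenic columns, Mad2l1 is high in ThPOK transgenic and low in p53 knockout, and Nuf2 runs from low in rag E2A knockout to high in Nup98HoxD13.

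TLX1 transgenic tumours against the other 13 backgrounds had 1 member higher and 6 lower in level, where 31.5% of all genes were called in either direction. Relative to the module mean 5 were higher and 4 lower (25.9% of all genes), with Stag1 at -0.84 ± 0.12, Kif23 at 0.87 ± 0.14 and Plk1 at -0.53 ± 0.13 as the members of lowest p. With the ratio covariate these were -0.70, 0.76 and 0.0104, and none was called.

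In p53 knockout tumours 2 members were higher and 8 lower in level (21.7% of all genes called), and 4 and 2 relative to the module mean (16% of all genes). Mad2l1 was lower, with signals of 894, 222 and 965 in p53 knockout tumours 1 to 3, against a median of 1333 and a range of 537 to 2297 in the other 44. The groups overlapped, as 9 of the other tumours lay below 965. Its relative difference was -0.89 ± 0.16 (limma adjusted p = 0.0004), and it was -0.65 (adjusted p = 0.0393) without tumour 2, the one with endothelial markers, where the level difference of -1.15 became -0.49 and was not called. Nek6 (signals 48.0, 295 and 166) and Mad1l1 (190, 137 and 329) were higher relative to the module mean, at 1.54 ± 0.36 (adjusted p = 0.0047) and 0.90 ± 0.25 (adjusted p = 0.0154). Without tumour 2 these were 0.61 and 0.75 and were not called. The count of members lower in level was 2 without tumour 2 and 14 without tumour 3.

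ThPOK transgenic tumours had 0 members higher and 5 lower in level (11.8% of all genes), and 3 higher and 2 lower relative to the module mean (3.64%). Mad2l1 was higher in them relative to the module mean, the opposite direction to the p53 knockout tumours, while its level difference of 0.72 did not pass (limma adjusted p = 0.0655). Its signals were 1464, 2297 and 2273 in ThPOK tumours 1 to 3, and 222 to 2257 with a median of 1220 in the other 44. On the relative scale the 3 ThPOK tumours, from 0.50 to 0.90, lay above every other tumour, of which the highest was 0.49 (difference 0.76 ± 0.16, limma adjusted p = 0.0031). Ttk had signals of 88.8, 189 and 119 in ThPOK tumours and 89.4 to 384 in the others, and was lower relative to the module mean (-0.69 ± 0.14, limma adjusted p = 0.0032). Here all 3 ThPOK values, from -0.89 to -0.36, lay below all others, of which the lowest was -0.35. The share of all genes that set 3 tumours apart in this way was not counted. These genes were picked by low p, so the separation adds nothing to the calls. Stag1 signals were 336, 368 and 370 in ThPOK tumours, against a median of 628 in the others, and the relative difference was -0.69 ± 0.17 (adjusted p = 0.0121). Without ThPOK tumour 1 the count of members lower in level was 0, the relative values were -0.76 for Stag1 and 0.86 for Mad2l1, both called, and that of Ttk was -0.58 and not called. Without tumour 3 none of these 3 relative values was called (0.66 for Mad2l1, -0.65 for Ttk and -0.71 for Stag1), nor was Stag1 without tumour 2 (-0.60).

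Nuf2 moved in 3 backgrounds. In the tumours labelled Nup98HoxD13 its signals were 891, 607 and 452, against 117 to 504 in the other 44, and only 2 of those exceeded 452. The relative difference was 0.92 ± 0.18 (limma adjusted p = 0.0024). Signals were 200, 136 and 136 in Tal1-LMO2 double transgenic tumours (-0.88 ± 0.18 relative, adjusted p = 0.0030). In rag E2A knockout tumours they were 140 and 117 (-1.01 ± 0.21, adjusted p = 0.0206), and only 2 of the other 45 tumours lay below 140. These 3 backgrounds had 2 higher and 0 lower, 2 and 2, and 0 and 1 members called in level, where 3.01%, 6.67% and 1.56% of all genes were called, and 2 and 2, 0 and 1, and 0 and 1 on the relative scale (4.2%, 2.07% and 0.204%). In the tumours labelled Nup98HoxD13, Bub3 (-0.58 ± 0.14, adjusted p = 0.0152) and Incenp (-0.56 ± 0.16, adjusted p = 0.0307) were lower relative to the module mean, but not in level (-0.25 and -0.24), in the background with the highest module mean (0.30 ± 0.22, SD, n = 3). The other probe sets ranged from -0.01 to 0.32 for Bub3 (3 probe sets) and from -0.02 to 0.16 for Incenp (2), and none passed. Each of these relative calls was lost without at least 1 tumour of its own background. Nuf2 was not called relative to the module mean without tumour 1 of those labelled Nup98HoxD13 (0.80), without Tal1-LMO2 tumour 2 (-0.78) or 3 (-0.75), or without either rag E2A knockout tumour (-1.28 and -0.75). Bub3 was not called without tumour 1 (-0.52) or 2 (-0.55) of those labelled Nup98HoxD13, and Incenp without any 1 of the 3 (-0.62 to -0.51).

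Ikaros Plastic tumours had 1 member higher and 10 lower in level (22.8% of all genes), and 4 and 3 on the relative scale (26.9%). Their module mean was -0.35 ± 0.43 (SD, n = 3), with tumour 2 at -0.85. Stag1 signals were 763, 752 and 827, all above the median of 589 in the other 44 tumours, of which 14 exceeded 752. It was higher relative to the module mean (0.83 ± 0.17, limma adjusted p = 0.0012), while its level difference of 0.44 did not pass. Cdc20 signals were 1321, 766 and 1528, against a median of 2489 in the others (relative -0.61 ± 0.16, adjusted p = 0.008). Ncapg signals were 336, 110 and 276, against a median of 441 (relative -0.52 ± 0.15, adjusted p = 0.0138). Without tumour 2 the relative values were 0.61, -0.56 and -0.32 for these 3 genes, none was called, and 1 member instead of 10 was lower in level. The other Ncapg probe set stood at 0.32 relative to the module mean and did not pass. The other Cdc20 probe sets stood at -0.43, which passed, and -0.08, which did not, and with quantile normalization Cdc20 was at -0.29 and not called.

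In beta-catenin transgenic tumours 1 member was higher and 2 were lower in level (18.8% of all genes), and 2 and 1 on the relative scale (9.58%). Chfr was the one higher in both. Its signals were 844, 1076 and 863 in these tumours, and only 3 of the other 44 exceeded 844. The level difference was 0.65 ± 0.16 (limma adjusted p = 0.004) and the relative one 0.75 ± 0.20 (adjusted p = 0.014). The other Chfr probe set, above the median in all 47 arrays, gave 0.33 in level and 0.43 relative to the module mean, and neither passed. Without beta-catenin tumour 2 the level call was lost (0.54), and without any 1 of the 3 the relative call was lost (0.70 to 0.80). Chfr was lower in level in p53 knockout tumours (-0.59, limma adjusted p = 0.00794), but at -0.39 and not called without tumour 2. It was also lower in ThPOK tumours (-0.48, limma adjusted p = 0.044), where no value with 1 tumour left out was called (-0.51 to -0.44). In Cdkn2a knockout tumours it was higher (0.28, limma adjusted p = 0.0289), and not called without tumour 2, 5 or 9 (0.25 to 0.27). Relative to the module mean, Chfr stood at -0.33 in p53 knockout, -0.44 in ThPOK and 0.18 in Cdkn2a knockout tumours, and none of these was called. Ncapd2 (signals 1724, 1414 and 1322) was higher relative to the module mean in beta-catenin tumours (0.73 ± 0.19, adjusted p = 0.0114) and Ncapg (272, 286 and 217) was lower (-0.57 ± 0.15, adjusted p = 0.0138), so subunits of 1 condensin complex had opposite signs there. Ncapg lost its call without any 1 of the 3 tumours (-0.62 to -0.52) and was 0.38 on its other probe set, which did not pass, and Ncapd2 lost its call without tumour 1 (0.61) or 3 (0.75).

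The 9 Cdkn2a knockout tumours had 6 members higher and 2 lower in level (30.7% of all genes), and 4 and 4 on the relative scale (20.5%). Zwilch signals ran from 251 over a median of 469 to 623 in them, and from 104 over 297 to 569 in the other 38. On the relative scale, 0.23 to 0.82 in Cdkn2a knockout tumours, only 3 of the other 38 reached 0.23 (difference 0.46 ± 0.10, limma adjusted p = 0.0014). Stag1 had signals of 586, 771 and 1101 (lowest, median, highest), against 178, 581 and 1011, and its relative difference was 0.38 ± 0.10 (adjusted p = 0.0074). Bub3 signals were 1259, 1913 and 2356, against 1222, 2332 and 3781, with -0.41 ± 0.09 (adjusted p = 0.001), and its 3 other probe sets stood at -0.20, -0.06 and 0.42, none of which passed, although the last was called higher in level (0.51). Mad2l1 was higher relative to the module mean by 0.29 (limma adjusted p = 0.0283), and not called without tumour 1, 3 or 4 (0.26 to 0.28). Without tumour 8, 9 members instead of 6 were higher in level.

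The remaining 5 backgrounds had few calls. In Tal1 transgenic tumours 1 member was higher in level (4.96% of all genes, and 1.35% on the relative scale). Incenp was higher relative to the module mean (0.77 ± 0.19, limma adjusted p = 0.0325). Its signals were 3414 and 3435, and the highest of the 45 others was 3352. Its level difference of 0.98 did not pass (limma adjusted p = 0.055), so the level call was of another member. Relative to the module mean the Tal1 tumours stood at 0.710 and 0.805, and 2 of the others lay above 0.710, the highest at 0.911. The share of all genes whose signals set so small a group apart was not counted. The relative call was lost without either tumour (0.82 and 0.72), and the other probe sets stood at 0.00207 (above the median in all 47 arrays) and -0.33 and did not pass. In the tumours labelled olig1-LMO1, Bub1b had signals of 1900, 1189 and 1823, against a median of 745 in the others, of which 6 exceeded 1189. It was the only member called there (relative 0.79 ± 0.20, adjusted p = 0.041, where 0.863% of all genes were called), while 0 were called in level (0.658% of all genes). This call was lost without any 1 of its 3 tumours (0.64 to 1.03) and under 7 of 14 alternatives. In LMO1 transgenic, E2A knockout and Pokemon transgenic tumours 0 members were called on either scale, where the level fit called 1.03%, 4.34% and 0.953% of all genes and the relative fit 0.17%, 1.11% and 0.352%.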

How the data were processed

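Total RNA, extracted with Trizol, was labelled as biotinylated cRNA (per the labels' protocols). What the authors deposited is a linear signal intensity for each probe set on each array. The submitters' processing notes name MAS5, with no version or scaling target. The table holds 22690 probe sets, of which 64 are controls, 20380 carry 1 symbol, 691 several and 1555 none. Deposited signals were analysed as log2(signal + 15.9), the constant being their 25th percentile, with no further scaling. Symbols were those of the platform annotation, which can be old. Probe sets above the array median in at least 2 arrays were kept, and the one with the highest mean stood for its gene.

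Fits used limma 3.58.1 in R 4.3.3 (lmFit, eBayes with trend), with Benjamini-Hochberg adjustment over 8810 genes and a threshold of 0.05. Relative levels subtract the module mean, which contains the gene itself, from every gene. TLX1 positive tumours were set against negative ones, and each background against the unweighted mean of the other 13. The TLX1 fit, in level and relative to the module mean, was tested on simulated data with independent noise. Of the background fits, only the signs of planted TLX1 differences were checked there. The F-tests and the alternative settings were not tested in this way.

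The members and all lists (roles, mitotic members, proliferation, other segregation genes, cell markers) were chosen with earlier results of these data known. The text names Mad2l1, Bub1, Chfr and Stag1, every member called for TLX1, up to 3 relatively called members of lowest p per background, the 5 highest and 5 lowest correlations with the other members, the 3 widest and 3 narrowest spreads and up to 4 called genes of each further list. The remaining members are given so that all are accounted for, and probe sets and further calls of the named checkpoint genes were picked after their values were seen. Alternatives were 2 other constants, quantile normalization, no filter or one of 6 arrays, another probe set, eBayes without trend, a replicate block, the 3'/5' ratio as a covariate, background as a random block, other means to subtract, and leaving tumours out. The settings without TLX1 tumours 1, 3 and 4, without p53 knockout 2 and Ikaros Plastic 2, with both ratio and module mean as covariates, and with each further probe set of the named members (module mean unchanged) were chosen after seeing the data. The p53 gene is not analysed here.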

Additional observations from a re-analysis of the deposited data

Results flagged for a closer look

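In groups of 6 and 9 tumours, 22 values were examined for a single tumour far from the rest, of which chance alone picks about 5%. The 5 found all belong to Cdkn2a knockout tumour 8, the lowest of its 9. Its module mean was -0.56, with the next tumour at 0.04. Its Mad2l1 level was 10.02 (log2; signal 1019) with the next at 10.52, and its Bub1 level 8.10 (signal 259) with the next at 9.41. Ncaph stood at 8.94 (signal 474), with the next at 9.56, and Kif23 at 7.27 (signal 138), with the next at 8.15. These values share 1 array, so they are not independent of each other.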

How the results depend on the processing

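Calls for TLX1 changed with the 3'/5' ratio covariate, the choice of probe sets and single tumours. The 1 member higher in level became 0 with the 3'/5' ratio in the model, with background as a random block, without TLX1 tumours 2, 5 and 6, and without 1, 3 and 4. The 5 lower became 0 under the first 3 of these, 14 with the probe set of largest interquartile range and 8 without p53 knockout 2 and Ikaros Plastic 2. Relative to the module mean, the 3 higher became 5 with quantile normalization or with backgrounds weighted equally, 12 with the other probe set, and 0 with the ratio (with or without the module mean as a further covariate), the random block or TLX1 tumours 2, 5 and 6 left out. The 4 lower became 0 under those last 4, 9 with the other probe set and 2 when the proliferation mean was subtracted. Over the backgrounds, the 16 pairs higher in level became 29 with the other probe set. The 26 relatively higher became 45 with the proliferation mean and 40 with the module mean as a covariate, and the 20 relatively lower became 39 (other probe set), 44 (covariate) and 32 (without p53 knockout 2 and Ikaros Plastic 2). Leaving out 1 tumour at a time gave 0 to 1 higher and 3 to 8 lower for TLX1 in level, 1 to 4 and 2 to 5 relative to the module mean, 13 to 27 and 30 to 44 background pairs in level, 23 to 29 and 16 to 34 relative, and 20 to 29 and 22 to 29 members in the F-tests.

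Some signs turned. With the ratio covariate Mad2l1 was 0.13 and Plk1 0.11 in level for TLX1, 0.0369 and 0.018 relative to the module mean (Mad2l1 0.00278 with both covariates), and Plk1 was 0.10 and 0.0104 in TLX1 transgenic against the other backgrounds. With the probe set of largest interquartile range used for every gene (the other probe set above), which also moves the module mean, Bub1 was 0.79 and Ncapg -0.0051 relative for TLX1, Bub3 0.51 in level and 0.33 relative in Cdkn2a knockout, Incenp -0.10 in Tal1 transgenic, Bub3 0.17 and Incenp 0.00674 in tumours labelled Nup98HoxD13, and Ncapg 0.0934 in Ikaros Plastic and 0.14 in beta-catenin tumours. Of 930 gene values under alternatives 802 kept their direction and side of the threshold, and of 3290 with 1 tumour left out 3187 did. Causes were not tested.

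For tumours with the same title number in different backgrounds, the deviations from the background means had a median correlation of 0.00 (230 pairs, -0.28 to 0.32). For pairs of other numbers it was also 0.00 (772 pairs, -0.38 to 0.44). A median near 0 cannot exclude a batch shared by some tumours of 1 title number. With a replicate block on these numbers, the member higher for TLX1 became 0 (Kif23 at 0.55), the 5 lower stayed 5 in number, 2 were relatively higher, and 9 instead of 16 background pairs were higher in level. In Cdkn2a knockout tumours, Stag1 (0.31 in level, 0.18 relative) and Bub3 in level (-0.28) were not called with it. The number of arrays limits the precision, and most backgrounds have 2 or 3.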
